A study of Homo sapiens with 4 samples.

Results

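Integrins are receptors at the cell surface that hold cells to the matrix around them. Each is a pair of 1 alpha and 1 beta subunit, and the pair decides the ligand: laminins of the basement membrane, collagens, or proteins that carry the RGD sequence, such as fibronectin and vitronectin. Inside the cell the tails recruit talin, kindlins and focal adhesion kinase, through which adhesion feeds the ERK and PI3K/AKT pathways. In pancreatic ductal adenocarcinoma, integrins are known for their roles in attachment, invasion and survival.

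The genes described here are the 10 integrin subunits ITGA2, ITGA3, ITGA5, ITGA6, ITGAV, ITGB1, ITGB3, ITGB4, ITGB5 and ITGB8, taken by symbol from a table of 16834 genes. The cells were labelled MIA PaCa-2, wild type, a human pancreatic cancer line, and were treated for 12 h. The control library had neither drug, the NBT library had 1 µM neobractatin (NBT, a natural compound), the trametinib library had 5 µM trametinib, an inhibitor of the kinases MEK1 and MEK2, and the combination library had both drugs at the same doses. Each condition was 1 library, so no value has a replicate error, and no p-value is given. The intervals below cover counting error only and leave out the spread between cultures.

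The library sums were 18776247 estimated reads for control, 19437791 for NBT, 18949965 for trametinib and 19614809 for the combination. A gene was called between 2 libraries when an exact two-sided binomial test of their counts, Benjamini-Hochberg adjusted over all genes tested, gave at most 0.05 and the log2 fold change was at least 1 in size. Such a call compares 2 libraries, not 2 conditions. Of 10 listed ERK output genes, 10 were called lower in the trametinib library, where 2.15% of all genes tested were called lower. Of 10 listed NRF2 and ATF4 target genes, 9 were called higher in the NBT library, where 1.6% of all genes tested were called higher. Both lists were chosen with earlier results of these data known, so these counts are not an independent check of the drugs. The libraries went against the labelled line in several genes. MIA PaCa-2 is known for loss of both copies of CDKN2A and MTAP, yet CDKN2A had 2643 reads and MTAP 1148 reads in the control library. The line is usually described as rich in vimentin and poor in E-cadherin, whereas the control library held VIM at 11.5 TPM, CDH1 (E-cadherin) at 85.4 TPM and KRT5, a basal keratin, at 1180 TPM. CDKN2A, MTAP and KRT5 were picked after their values were seen. Of 10 markers of other cell types, 7 were in the table, and their summed level without CD68 was 1.06 TPM in control, 1.23 in NBT, 5.64 in trametinib and 3.66 in the combination. CD68, a macrophage marker, was at 91.9 to 139 TPM in all 4 libraries, while the leukocyte gene PTPRC had 8 to 17 reads. The part of other cells in the integrin values was not tested, and fewer cells of a type cannot be told apart from less RNA per cell.

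Integrin subunits took a smaller part of the RNA after trametinib. The 10 genes held 0.301% of all counts in the control library (exact 95% interval 0.298 to 0.303) and 0.261% in the NBT library (0.259 to 0.264). They held 0.167% with trametinib (0.165 to 0.169) and 0.147% with both drugs (0.146 to 0.149). Summed per length, the subunits stood at 1252 TPM in control, 1043 in NBT, 695 in trametinib and 612 in the combination. From control to the combination, the abundant ITGA3, ITGB4 and ITGB1 lost the most TPM, whereas in proportion ITGA2, ITGB5, ITGA3 and ITGB4 fell most. ITGA5, ITGAV and ITGB1 stayed within a factor of 2 of control in every library.

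Against control, 1 of 10 subunits was called lower with NBT (ITGB8), where 1.01% of all genes tested were called lower. With trametinib 4 of 10 were called lower (ITGA2, ITGA3, ITGA6 and ITGB5), beside 2.15% of all genes. With the combination 4 of 10 were called lower (ITGA2, ITGA3, ITGB4 and ITGB5), beside 3.69% of all genes. No subunit was called higher than control in any treated library. The shares of all genes tested that were called higher were 1.6% (NBT), 3.8% (trametinib) and 4.72% (combination). With shares this small, 10 genes are too few for the absence of higher calls to set them apart. The median log2 fold change of the 10 subunits was -0.14 with NBT, -0.66 with trametinib and -0.66 with both drugs. The medians over all genes tested were -0.01, 0.08 and 0.05, in the same order.

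**Figure D1:**
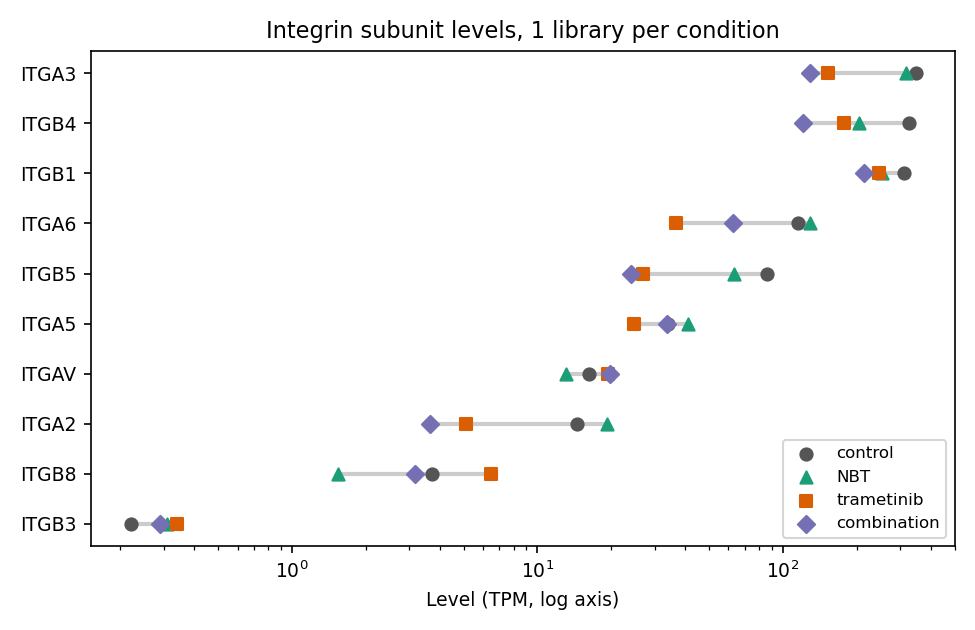
Level of each integrin subunit in TPM (log axis), 1 point for each of the 4 libraries, with a grey line from the lowest to the highest. ITGA3, ITGB4 and ITGB1 led in every library, and the trametinib and combination points of ITGA2, ITGA3 and ITGB5 lie to the left of control.

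In the control library the order of levels per length ran from ITGA3 (347 TPM) through ITGB4 (325 TPM) and ITGB1 (310 TPM) to ITGA6 (115 TPM) and ITGB5 (86.4 TPM). ITGA5 (34.2 TPM), ITGAV (16.2 TPM), ITGA2 (14.5 TPM), ITGB8 (3.71 TPM) and ITGB3 (0.22 TPM) followed. ITGAV and ITGA2 were the only neighbours in that library whose counting intervals overlapped. In the trametinib and combination libraries ITGB1 led instead, at 247 and 215 TPM, and ITGA5 passed ITGB5 in the combination. The neighbours ITGB5 and ITGA5 overlapped in the trametinib library, and ITGA2 and ITGB8 in the combination.

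ITGA3 (NCBI Gene 3675, chr17:50055968-50090481, plus strand, GRCh38) encodes the alpha subunit of α3β1, a receptor for laminin-332 and laminin-511. It had 15718 reads in control, 15676 with NBT, 7061 with trametinib and 6243 with both drugs. The NBT library was close to control (log2 fold change -0.05, interval -0.09 to -0.02), and both libraries with trametinib held less than 50% of the control level. The log2 fold change was -1.17 (-1.21 to -1.13) with trametinib and -1.40 (-1.44 to -1.35) with the combination, called in both.

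ITGA6 (NCBI Gene 3655, chr2:172427354-172506282, plus strand) pairs with ITGB1 or ITGB4 and is the other main laminin-binding alpha subunit. Its counts were 6079 in control, 7366 in NBT, 1993 in trametinib and 3563 in the combination. Trametinib alone gave the lowest value, called lower at -1.62 (-1.70 to -1.55). With NBT added, the level stood between trametinib and control, at -0.83 (-0.89 to -0.77) against control, which was not called, and at 0.79 (0.71 to 0.87) against trametinib alone.

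The ITGA6 RNA is spliced at its end into 2 forms, α6A and α6B, which differ in the tail that reaches into the cell. The RefSeq transcript NM_000210 carries the α6A tail in exon 25 of 26, with 105 coding bases at chr2:172501772-172501876 (GRCh38, plus strand). NM_001079818 skips that exon and codes the α6B tail in exon 25 of 25, with 159 coding bases at chr2:172504091-172504249. Both coding stretches are shown because they are what sets the 2 forms apart. Capitals mark the codons of GFFKR, the motif next to the membrane that alpha subunits share.

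ITGA6 α6A tail: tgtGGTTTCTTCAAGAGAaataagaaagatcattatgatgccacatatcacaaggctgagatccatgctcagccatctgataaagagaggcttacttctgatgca
ITGA6 α6B tail: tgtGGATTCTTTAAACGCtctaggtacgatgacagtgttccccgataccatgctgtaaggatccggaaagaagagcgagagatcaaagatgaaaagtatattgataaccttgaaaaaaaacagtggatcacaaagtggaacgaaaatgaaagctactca

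The α6A transcript was estimated at 35.2 TPM in control, 35.2 in NBT, 10.3 in trametinib and 19.4 in the combination. The α6B transcript was estimated at 14.2, 8.71, 2.97 and 4.05 TPM in the same libraries. Both were lower in the libraries with trametinib, and α6A was the more abundant form in all 4. Of the 2 transcripts together, α6A made up 71.3% in control, 80.2% in NBT, 77.6% in trametinib and 82.7% in the combination. These 2 of 9 ITGA6 transcripts carried 34.1% to 43.0% of the gene's TPM. The other 7 were not assigned to a form, and the error of dividing reads among overlapping transcripts is unknown.

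**Figure D2:**
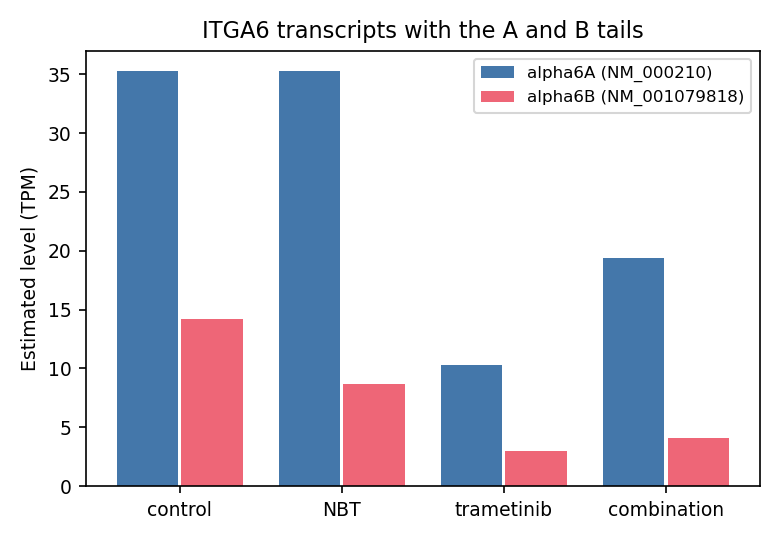
Estimated level in TPM of the ITGA6 transcripts with the A tail (NM_000210) and the B tail (NM_001079818), 1 bar for each library and no error bars since each condition is 1 library. The A form stands above the B form in all 4 libraries, and both are lowest with trametinib alone.

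ITGB4 (NCBI Gene 3691, chr17:75721328-75757818, plus strand) encodes β4, which pairs only with α6 and anchors keratins to laminin in hemidesmosomes. It had 17404 reads in control, 11756 with NBT, 9639 with trametinib and 6935 with both drugs. Both single-drug libraries stood below control without reaching a call, at -0.62 (-0.65 to -0.58) for NBT and -0.87 (-0.90 to -0.83) for trametinib. The combination, at -1.39 (-1.43 to -1.35), was called. Per length, ITGB4 over ITGA6 was 2.83 in control, 1.58 in NBT, 4.84 in trametinib and 1.93 in the combination. That ratio moved by 0.76 (0.67 to 0.84) on the log2 scale with trametinib and by -0.84 (-0.90 to -0.78) with NBT, so the balance of the α6β4 partners moved in opposite directions in the single-drug libraries.

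ITGB1 (NCBI Gene 3688, chr10:32900319-33005792, minus strand) encodes β1, the partner of α2, α3, α5 and α6 among others. Its counts were 11028, 9779, 9018 and 8196 in control, NBT, trametinib and the combination. The shifts against control were small and all downward, from -0.22 (-0.26 to -0.18) with NBT to -0.49 (-0.53 to -0.45) with both drugs, and none was called. Since the other abundant beta subunits were lower still, ITGB1 made up 42.3% of the summed beta TPM in control and 58.7% in the combination.

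ITGA2 (NCBI Gene 3673, chr5:52989326-53094779, plus strand) encodes the alpha subunit of the collagen receptor α2β1. Its counts were 1090 in control, 1560 in NBT, 395 in trametinib and 293 in the combination. NBT alone stood above control, at 0.47 (0.35 to 0.58), without a call. Trametinib was called lower at -1.48 (-1.65 to -1.31), and the combination at -1.96 (-2.15 to -1.77), the largest fall of any subunit against control. On top of trametinib the combination was lower by another -0.48 (-0.70 to -0.26), so NBT went with more ITGA2 reads in the absence of trametinib and with fewer in its presence.

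ITGA5 (NCBI Gene 3678, chr12:54395261-54419460, minus strand) encodes the alpha subunit of α5β1, the main fibronectin receptor. Its counts were 1120 in control, 1438 in NBT, 826 in trametinib and 1184 in the combination. Trametinib stood below control at -0.45 (-0.58 to -0.32), NBT above it at 0.31 (0.20 to 0.42), and the combination at 0.02 (-0.10 to 0.14), with none called. Per length, ITGA5 over ITGA2 was 2.36 in control, 2.13 with NBT, 4.82 with trametinib and 9.26 with both drugs.

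ITGAV (NCBI Gene 3685, chr2:186590065-186680901, plus strand) encodes αV, the partner of β3, β5 and β8. It had 1094 reads in control, 951 with NBT, 1339 with trametinib and 1430 with both drugs. It stood above control with trametinib, as ITGB8 did, at 0.28 (0.16 to 0.39), and the combination was at 0.32 (0.21 to 0.44). Neither was called.

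ITGB5 (NCBI Gene 3693, chr3:124761948-124901418, minus strand) encodes β5, which with αV binds vitronectin. Its counts were 2615, 2092, 847 and 771 in control, NBT, trametinib and the combination. NBT alone gave -0.37 (-0.46 to -0.29). Both libraries with trametinib were called lower, at -1.64 (-1.75 to -1.53) and -1.82 (-1.94 to -1.71). Per length, ITGB5 stood at 5.32 times ITGAV in control, 4.87 times with NBT, 1.39 times with trametinib and 1.21 times with both drugs. β5 RNA thus exceeded that of its only alpha partner by far less in both libraries with trametinib. Its 7 transcripts did not keep the same shares: XM_017006353 was estimated at 37.1% of the ITGB5 TPM in control and 7.33% in the combination.

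ITGB8 (NCBI Gene 3696, chr7:20330702-20415754, plus strand) encodes β8, which with αV binds and activates latent TGF-β. Its counts were 319 in control, 140 in NBT, 567 in trametinib and 292 in the combination. The drugs went with opposite directions: NBT was called lower at -1.24 (-1.54 to -0.95), and trametinib stood above control at 0.82 (0.62 to 1.02) without a call. The combination was close to control, at -0.19 (-0.42 to 0.04).

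ITGB3 (NCBI Gene 3690, chr17:47253846-47311816, plus strand) encodes β3, another partner of αV. It had 13, 19, 20 and 18 reads in control, NBT, trametinib and the combination. Every interval against control included 0, with trametinib from -0.47 to 1.74, so no difference was detectable at this depth. Counting 3 reads as the limit of a count of 0, the depth allowed for levels of up to 0.153 to 0.160 CPM (reads scaled to a fixed library sum).

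**Figure D3:**
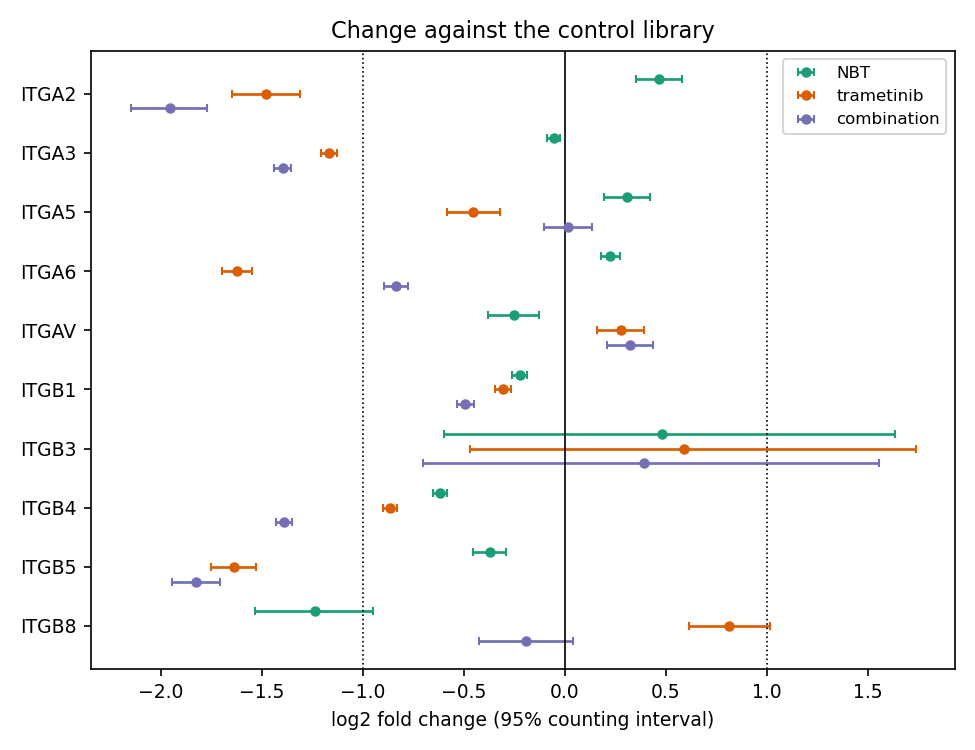
Log2 fold change of each integrin subunit against the control library for NBT, trametinib and the combination; bars are 95% counting intervals and the dotted lines mark the limit of 1 in either direction. ITGA2, ITGA3 and ITGB5 lie past -1 with trametinib and with the combination, ITGA6 only with trametinib, ITGB4 only with the combination and ITGB8 only with NBT.

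Taken by ligand, the mixture of alpha subunits moved from laminin receptors toward RGD receptors. Over the 17 alpha genes in the table, the laminin-binding ITGA3, ITGA6 and ITGA7 made up 86.6% of the summed alpha TPM in control, 84.9% in NBT, 76.5% in trametinib and 74.5% in the combination. The RGD-binding subunits, mainly ITGA5 and ITGAV, made up 9.52%, 10.3%, 17.9% and 20.9%. In TPM, the laminin-binding sum was 462 in control, 189 with trametinib and 192 with both drugs, whereas the RGD-binding sum was 50.8, 44.3 and 53.6. The larger RGD share thus came with fewer laminin receptor transcripts rather than with many more RGD receptor transcripts. The alpha sum over the beta sum was 0.728 in control, 0.999 in NBT, 0.535 in trametinib and 0.703 in the combination.

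**Figure D4:**
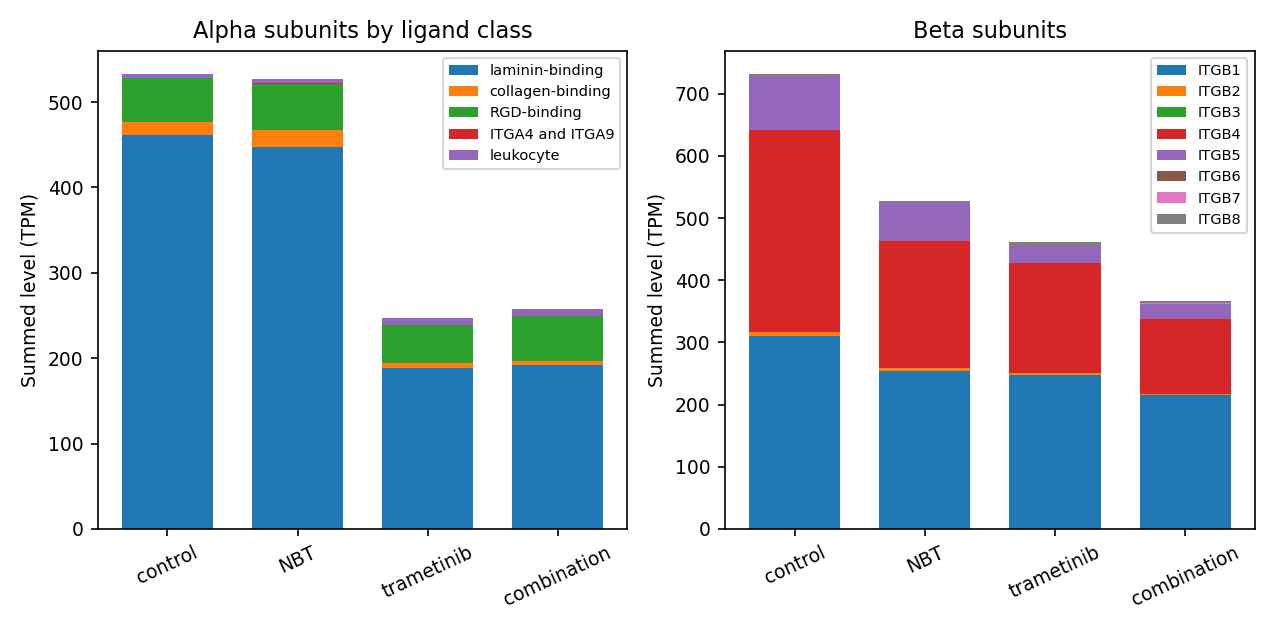
Summed level in TPM of all alpha genes by ligand class (left) and of all beta genes (right), 1 stacked bar for each library. The laminin-binding block shrinks from 462 TPM in control to 189 with trametinib and 192 with both drugs, and on the beta side ITGB4 and ITGB5 shrink more than ITGB1 in proportion to their control level.

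The next question was what NBT added to trametinib. Between the combination and trametinib libraries, 1 of 10 subunits was called lower, ITGB8 at -1.01 (-1.22 to -0.80), beside 3.55% of all genes, and that call was lost with other scalings and with 5 reads added. ITGA6 at 0.79 and ITGA5 at 0.47 (0.34 to 0.60) were higher than with trametinib alone. ITGB4 was lower at -0.52 (-0.57 to -0.48), as it was with NBT alone. For 8 of 10 subunits the interval excluded 0 both with NBT alone and with NBT on top of trametinib. Of these, 7 had the same direction in both, and ITGA2 had opposite directions. The share of all genes that did so was not computed. With many reads the interval excludes 0 for small shifts too, such as -0.05 for ITGA3 with NBT alone.

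What trametinib added to NBT was larger. Between the combination and NBT libraries, 4 of 10 subunits were called lower, beside 1.99% of all genes, and 1 was called higher, beside 2.37%. The lower ones were ITGA2 at -2.42 (-2.61 to -2.24), ITGB5 at -1.45 (-1.57 to -1.33), ITGA3 at -1.34 (-1.38 to -1.30) and ITGA6 at -1.06 (-1.119 to -1.003). ITGB8 was the higher one, at 1.04 (0.75 to 1.35), a call that was lost by TPM (0.996). Trametinib alone against control, a comparison of the other 2 libraries, called the same 4 subunits lower.

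**Figure D5:**
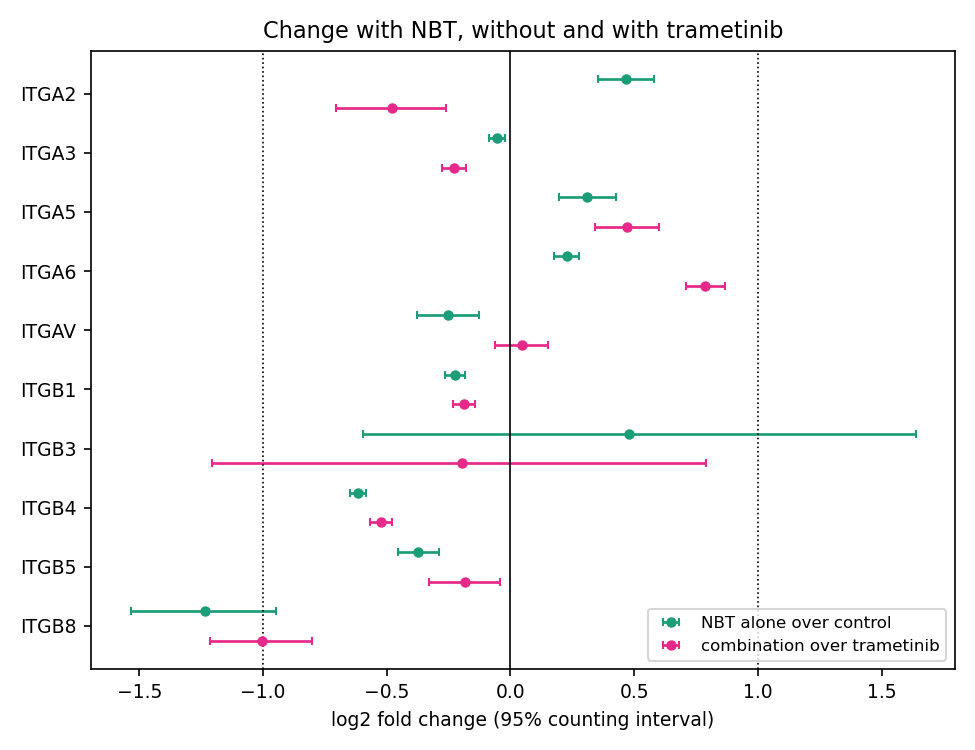
Log2 fold change with NBT for each integrin subunit, for NBT alone over control and for the combination over trametinib; bars are 95% counting intervals and the dotted lines mark the limit of 1. The points of ITGA2 lie on opposite sides of 0, at 0.47 and -0.48, and ITGA6 lies farther to the right in the presence of trametinib.

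The change with the combination was also set against the sum of both single-drug changes on the log2 scale. The departure from that sum was at least 1 in size for 0 of the 9 subunits with at least 50 counts in a library, which leaves out ITGB3, beside 265 of 11367 such genes (2.33%). ITGA2 came closest, at -0.95 (-1.19 to -0.70), with a sum of -1.01 and a measured change of -1.96. ITGA6 departed the other way, at 0.56 (0.47 to 0.65), with a sum of -1.39 and a measured change of -0.83. ITGAV departed by 0.30 (0.13 to 0.46), and ITGB1 lay at the sum, with a departure of 0.04 (-0.02 to 0.09).

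The bases before an annotated start of 3 subunits called lower with trametinib are shown, since these genes moved together in that library. They come from RefSeq windows that end at a transcript start (GRCh38.p14), with the part in annotated exons left out. RefSeq windows matched 7 of the 10 subunits, 12 windows in all, and ITGA3, ITGB3 and ITGB4 had none. Capitals mark every match, on either strand, to the letters TGANTCA (AP-1), CCGGAA (ETS), TGACNNNGC (the core of the antioxidant response element, ARE) or GGGCGG (Sp1).

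ITGA2, chr5:52989102-52989325, plus strand: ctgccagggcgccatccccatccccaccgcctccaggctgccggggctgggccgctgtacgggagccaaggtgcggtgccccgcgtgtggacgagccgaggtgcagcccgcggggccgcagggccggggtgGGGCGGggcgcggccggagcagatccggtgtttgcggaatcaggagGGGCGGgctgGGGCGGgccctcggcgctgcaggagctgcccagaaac
ITGA6, chr2:172427086-172427335, plus strand: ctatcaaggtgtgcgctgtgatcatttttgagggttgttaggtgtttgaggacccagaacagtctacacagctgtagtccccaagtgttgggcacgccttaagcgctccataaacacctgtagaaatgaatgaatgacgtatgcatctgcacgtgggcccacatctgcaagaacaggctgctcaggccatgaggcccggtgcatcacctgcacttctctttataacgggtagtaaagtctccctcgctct
ITGB5, chr3:124901419-124901668, minus strand: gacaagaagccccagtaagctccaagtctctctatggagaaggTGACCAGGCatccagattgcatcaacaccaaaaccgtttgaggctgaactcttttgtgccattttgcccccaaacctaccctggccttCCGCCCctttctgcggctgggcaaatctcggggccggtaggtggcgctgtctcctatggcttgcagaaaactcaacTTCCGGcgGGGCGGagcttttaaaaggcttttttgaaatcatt

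The AP-1 letters were in 0 of the 12 windows of 250 bases, beside 6.57% of the 35116 windows of the same length over all genes. The ETS letters were in 3 of 12 windows (ITGB1, ITGB5 and a second ITGA6 window that is not printed), beside 14.5%. The printed ITGA6 window held no match to any of the 4 motifs. The second ITGA6 window, directly downstream, held 1 ETS and 3 Sp1 matches, and only 18 of its bases lie before the annotated exon. The ARE letters were in 2 of 12 (ITGB1 and ITGB5), beside 10.9%. The Sp1 letters were in 7 of 12, beside 42.6%. In the printed ITGB5 window the ETS match began at base -43 and the ARE match at base -207, counted from its transcript start. ITGB5 also had windows at starts farther downstream, chr3:124887685-124887934 and chr3:124887366-124887615, which are not printed. Neither held an ETS or an ARE match. These matches are descriptions of the letters and not of bound sites.

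Among the matrix ligands, several laminin genes were called lower in the libraries with trametinib. LAMA3, an alpha chain of laminins that α3β1 and α6β4 bind, had 3246 reads in control, 2064 with NBT, 1003 with trametinib and 669 with both drugs, and was called lower with trametinib at -1.71 (-1.81 to -1.61) and with the combination at -2.34 (-2.46 to -2.22). LAMB3, a beta chain, had 7266, 8449, 3647 and 5502 reads and was called lower only with trametinib, at -1.01 (-1.07 to -0.95). LAMB1, another beta chain, was called lower with the combination at -1.68 (-1.78 to -1.58). Of the 30 listed matrix ligands, 29 were in the table, and 4 were called lower and 1 higher with trametinib, where 2.15% of all genes were called lower and 3.8% higher. With the combination 7 were called lower and 2 higher, beside 3.69% and 4.72%. THBS1 (thrombospondin 1), a matrix protein that binds several integrins, was called lower than control in every treated library. Its log2 fold change was -1.24 for NBT alone, -1.87 for trametinib alone and -3.12 for both drugs. THBS1 was also called lower in the combination than in the trametinib library, at -1.25. CCN2, another matrix protein, was called lower than control with trametinib at -1.57 and with the combination at -2.23. Other laminin genes stood above control with trametinib. LAMA5, the alpha chain of laminin-511, had 7115, 3087, 11719 and 3258 reads in control, NBT, trametinib and the combination. Against control it was at 0.71 with trametinib, which was not called, and was called lower with NBT at -1.25 and with the combination at -1.19. It was also called lower between the combination and trametinib at -1.90. LAMB2, a beta chain, was at 0.72 with trametinib and -0.19 with the combination. The median log2 fold changes of the listed ligands, -0.08 with trametinib and -0.12 with the combination, lay near the medians of all genes. With NBT alone the ligand median was lower, at -0.45, beside -0.01 over all genes. Of the 24 ligands tested there, 2 were called lower and 0 higher, beside 1.01% and 1.6% of all genes.

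Inside the cell, integrins bind the adaptors and kinases of focal adhesions. All 26 listed genes of this kind were tested, and 1 was called lower and 1 higher with trametinib, beside 2.15% and 3.8% of all genes. With the combination 3 were called lower and 0 higher, beside 3.69% and 4.72%. TNS4 (tensin 4), an adaptor that binds beta tails, had 1484 reads in control, 761 with NBT, 90 with trametinib and 85 with both drugs. It was the gene of the list that fell most, by 4.05 on the log2 scale with trametinib and by 4.18 with the combination, and it was also called lower with NBT at -1.01 (-1.14 to -0.89). The actin-linking proteins ACTN1 (alpha-actinin 1) at -1.16 and VCL (vinculin) at -1.12 were called lower against control only with the combination. TNS3 (tensin 3) was called lower between the combination and trametinib at -1.27. Among 10 integrin inactivators and trafficking factors, KANK2, a talin-binding protein, was the 1 gene called against control, lower with the combination at -1.05.

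Of the 4 listed hemidesmosome partners of α6β4, 1 was called against control, with the combination, where 3.69% of all genes were called lower. PLEC (plectin), which links β4 to keratins, was lower with the combination at -1.19 (-1.22 to -1.17). COL17A1 had 11345, 13320, 9614 and 10893 reads in control, NBT, trametinib and the combination, and the tetraspanin CD151, which binds α3β1 and α6β4, had 3893, 3839, 3865 and 3903. Neither was called. DST (dystonin), a plakin, was called higher between the combination and NBT at 1.07. Of 6 listed tetraspanins, 1 was called lower with trametinib and 2 with the combination, beside 2.15% and 3.69% of all genes. CD82, another tetraspanin, had 1739, 1209, 617 and 485 reads and was called lower with trametinib at -1.51 (-1.64 to -1.37) and with the combination at -1.90 (-2.05 to -1.76). TSPAN4 was called lower with the combination at -1.62 (-1.78 to -1.45). Of 6 listed latent TGF-β genes, 5 were in the table, and 0 were called with trametinib or with the combination against control. Over all genes, 2.15% were called lower and 3.8% higher with trametinib, and 3.69% and 4.72% with the combination. TGFB2, a latent TGF-β form, had 1611, 680, 1924 and 925 reads and was called lower with NBT at -1.29 (-1.43 to -1.16), and between the combination and trametinib at -1.11 (-1.22 to -0.99).

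The remaining integrin genes were low. Of 15 in the table, ITGAE and ITGB2 reached 100 reads. ITGAE had 195, 196, 236 and 230 reads in control, NBT, trametinib and the combination and was not called. ITGB2, the beta subunit of leukocyte integrins, had 183, 156, 101 and 60 reads and was called lower with the combination at -1.66 (-2.12 to -1.24). Among those with fewer than 100 reads in every library, ITGA4, ITGAL and ITGB7 were called higher with trametinib, and ITGAL, ITGAX and ITGB7 with the combination. Of the 15 genes, 3 were thus called higher and 0 lower with trametinib, beside 3.8% and 2.15% of all genes. With the combination 3 were called higher and 1 lower, beside 4.72% and 3.69%. All the higher calls rest on genes with few reads.

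Among the markers of the cells themselves, 7 of 8 epithelial and ductal genes were in the table. With trametinib 2 were called lower and 1 higher, beside 2.15% and 3.8% of all genes. With the combination 4 were called lower and 1 higher, beside 3.69% and 4.72%. KRT18 at -1.56 and SOX9 at -2.82 were the lower ones with trametinib, and MUC1 at 1.84 the higher one. Of 4 mesenchymal genes, only VIM was called against control, higher at 1.06 with trametinib and 1.24 with the combination. The others did not follow it. FN1 stood at -0.14 and -0.54, and ZEB1 at -0.40 and 0.61, in the same order, and CDH2 had 0 to 3 reads. The part of these shifts in the integrin values was not tested.

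By their 3 log2 fold changes against control, 10662 genes with at least 100 counts in a library were compared with each called subunit by Euclidean distance. CCN2, a matrix protein, was nearest to ITGA2, at a distance of 0.39, and TERT nearest to ITGA3, at 0.15. CDC42EP1 and CDC42EP2, which encode effectors of the small GTPase CDC42, were nearest to ITGA6, both at 0.12. TMEM201 was nearest to ITGB4, at 0.09, HPCAL1 to ITGB5, at 0.13, and SLC2A6, a glucose transporter, to ITGB8, at 0.20. With 3 values a gene from 4 libraries, these distances only describe the likeness of the profiles.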

How the data were processed

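RNA of 4 libraries, 1 for each condition, was sequenced on the BGISEQ-500 platform. The authors deposited for each gene and each RefSeq transcript estimated counts without normalization, TPM (per length, on a fixed sum for each library) and FPKM, the unit named in the study's methods. FPKM was not used further. The submitters' processing notes name RSEM 1.2.8, Bowtie2 2.2.5 and hg38, without their roles. Per the labels, 23S and 16S rRNA, which are bacterial, were depleted; how human rRNA was handled is not given in the sources used here. The cell line entries differ between the libraries, whereas every title gives MIA PaCa-2.

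The integrin subunits and the gene lists were chosen with earlier results of these data known. Estimated counts, which were not whole in at least 1 library for 53.9% of genes, were rounded and scaled to library sums, and log2 fold changes had 0.5 reads added. Genes were tested where either library had 1 or more counts, with an exact binomial test; limits were those of the study's methods. Intervals are exact (Clopper-Pearson, 95%). PCR duplicates were not separated by molecular identifiers, so intervals cover counting error only. All 10 subunits were named; 13 gene lists were counted, and from the lists of integrin ligands and partners genes called with at least 100 counts were named, at most 4 for each direction; of the lists that check the drugs and the cell types only some such genes are named, and the 3 genes most alike were found for each called subunit (those nearest are given). Alternatives were TMM factors (edgeR 4.0.16), size factors (DESeq2 1.42.0), TPM with 0.1 added, 5 reads added, a minimum of 10 counts, summed transcript counts, assumed coefficients of variation of 0.2 and 0.4, and log2 limits of 0.5 and 2. Scripts used R 4.3.3, Python 3.11.15 and SciPy 1.17.1 and were tested on simulated data. Gene positions came from GENCODE (GRCh38).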

Additional observations from a re-analysis of the deposited data

Results flagged for a closer look

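ITGA2 was singled out because NBT went with opposite directions in the absence and in the presence of trametinib: the log2 fold change was 0.47 for NBT over control and -0.48 for the combination over trametinib. The difference between both changes is the departure from the sum given above, -0.95 (-1.19 to -0.70). That interval covers counting error only. Each condition was 1 library, so the difference could not be tested against the spread between cultures.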

How the results depend on the processing

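With 1 library for each condition, no call has a replicate check, and ITGB3, at 13 to 20 reads, is limited by depth. No paired analysis was possible because each condition was 1 library. Of 300 alternative values of single subunits, 286 kept their side of the limits and moved by less than the counting interval, 10 moved more without losing a call, and 4 lost a call. The 286 include the values from the minimum of 10 counts and from summed transcript counts. Both settings give the same fold changes by construction, so they do not test how stable the values are. The sign changed in 3, all for ITGA5 between the combination and control, which was not called: 0.02 became -0.01 with TMM factors, -0.02 with DESeq2 size factors and -0.02 by TPM. All 4 lost calls were ITGB8: between the combination and trametinib its value was -0.97 with TMM factors, -0.98 with DESeq2 size factors and -0.995 with 5 reads added, where 0 subunits were then called, and between the combination and NBT it was 0.996 by TPM. Scaling moved no median over all genes by more than 0.1.

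Assuming a spread between cultures with a coefficient of variation of 0.2, the calls over all genes were 69 (NBT against control), 365 (trametinib against control), 547 (combination against control), 302 (combination against trametinib) and 204 (combination against NBT). Subunits called were then 0, 3, 4, 0 and 2, in that order. At 0.4 they were 4, 22, 51, 14 and 13 over all genes, with 0 subunits in each of the 5 comparisons. With a log2 limit of 0.5 the calls over all genes were 1468, 2442, 3685, 2994 and 1880. Subunits called were then 2, 6, 5, 3 and 7, in the same order. At that limit ITGB8 was 1 of 1523 genes called higher with trametinib against control. With a limit of 2 the calls over all genes were 116, 351, 401, 252 and 252, with 0 subunits in the first 4 comparisons and 1 in the last. The counts with the limits used were 414, 964, 1366, 998 and 710.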

Other observations

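Some leukocyte integrin genes had more reads in both libraries with trametinib than in the control and NBT libraries, and others did not. ITGAL had 12, 13, 63 and 41 reads in control, NBT, trametinib and the combination, ITGB7 had 0, 0, 17 and 9, and ITGA4 had 0, 0, 8 and 5. ITGB2, the partner of ITGAL, went the other way, with 183, 156, 101 and 60, and ITGAE had 195, 196, 236 and 230. CD3E, a T cell marker, had 0, 0, 55 and 29 reads in the same libraries, while PTPRC, which all leukocytes carry, had 8, 14, 17 and 15. These genes were named after their values were seen, and the source of the reads was not tested.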
